A study of Mus musculus with 2 samples.

Results

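p300 is a transcriptional co-activator with histone acetyltransferase activity that is recruited by transcription factors, and its binding marks enhancers, the DNA elements that raise transcription of a gene from a distance. Enhancers can lie inside genes as well as between them, and many vertebrate loci that hold enhancers are also transcribed into long RNAs without a protein product. Such long noncoding RNA genes often start beside, or run across, genes for transcription factors of development. A peak in the body of a noncoding gene is a position only and does not say whether the RNA is made.

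The p300 peaks described here are those that lie inside noncoding RNA genes. A peak was a member when its midpoint fell outside every protein-coding gene body and inside the body of a gene of type lincRNA, antisense or processed_transcript in the GENCODE vM1 annotation of the mm9 mouse assembly. This held for 181 of the 6629 deposited peaks, or 2.73% (exact Clopper-Pearson 95% interval 2.35 to 3.15%, which like all intervals here covers counting error only). Of the other peaks, 2831 had their midpoint in a protein-coding gene, 3611 were intergenic and 6 lay in genes of other types only. The annotation held 1273 lincRNA genes, 2572 processed_transcript genes and 0 antisense genes.

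The tissue was dorsal cerebral wall from Swiss Webster mouse embryos at day 14.5 of gestation, with no genetic change or treatment, from which the medial structures, the cortical hem and hippocampus and the choroid plexus had been cut away. At this age the wall holds dividing progenitors next to the ventricle and newborn neurons beneath the brain surface, all in 1 pool of 0.15 g, so no cell type can be assigned to a peak. Chromatin gave 1 library precipitated with a p300 antibody and 1 input library, both without replicates. No test between samples was therefore possible, and every comparison below is between classes of peaks in 1 list. The list gives positions only. It has no read count, score or enrichment, so the depth behind a single peak is unknown and the only size it gives is the width.

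The sequences below are the middle 300 bases of 10 members. They stand for the noncoding genes with most peaks and for peaks whose nearest coding start is that of Sox2 or Pax6. The label near covers 18.01 kb for peak 3821 and 56.6 kb for peak 3496. The sequences were read from the plus strand of mm9. Capitals mark matches to any of the 8 short motifs described further on, among them the E-box of proneural bHLH factors (CAGCTG or CATCTG), the homeodomain site TAATTA, the POU octamer ATGCAAAT and the AP-1 site TGANTCA. Either strand was searched, so CAGATG is the reverse strand of CATCTG.
Peak 4898, chr5:111426378-111426677, widest in Ttc28: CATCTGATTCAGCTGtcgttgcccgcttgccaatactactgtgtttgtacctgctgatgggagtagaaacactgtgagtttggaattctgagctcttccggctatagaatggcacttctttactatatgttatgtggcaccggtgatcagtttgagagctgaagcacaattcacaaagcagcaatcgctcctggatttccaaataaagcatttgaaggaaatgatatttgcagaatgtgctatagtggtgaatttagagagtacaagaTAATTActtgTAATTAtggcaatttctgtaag
Peak 1529, chr13:28884889-28885188, widest in 2610307P16Rik: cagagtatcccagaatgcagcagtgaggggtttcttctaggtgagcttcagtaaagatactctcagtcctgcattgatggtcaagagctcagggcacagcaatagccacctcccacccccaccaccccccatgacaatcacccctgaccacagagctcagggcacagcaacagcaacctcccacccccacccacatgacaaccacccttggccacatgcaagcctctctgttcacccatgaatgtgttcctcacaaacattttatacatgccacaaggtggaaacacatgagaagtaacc
Peak 3820, chr3:34561662-34561961, widest in Sox2ot: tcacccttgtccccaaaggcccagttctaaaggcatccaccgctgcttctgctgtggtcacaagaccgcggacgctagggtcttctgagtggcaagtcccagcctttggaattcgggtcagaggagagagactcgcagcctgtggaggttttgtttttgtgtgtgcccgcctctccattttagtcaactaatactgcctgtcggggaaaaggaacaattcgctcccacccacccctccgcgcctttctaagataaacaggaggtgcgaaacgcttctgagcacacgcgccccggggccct
Peak 1619, chr13:48226493-48226792, widest in A330033J07Rik: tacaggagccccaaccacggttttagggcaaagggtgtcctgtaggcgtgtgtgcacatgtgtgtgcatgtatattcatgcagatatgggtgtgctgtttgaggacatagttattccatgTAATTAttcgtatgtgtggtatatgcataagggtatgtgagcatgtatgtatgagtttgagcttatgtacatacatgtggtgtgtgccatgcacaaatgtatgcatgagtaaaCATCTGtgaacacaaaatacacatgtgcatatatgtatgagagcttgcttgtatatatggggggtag
Peak 4845, chr5:97895886-97896185, widest in 4930467D21Rik: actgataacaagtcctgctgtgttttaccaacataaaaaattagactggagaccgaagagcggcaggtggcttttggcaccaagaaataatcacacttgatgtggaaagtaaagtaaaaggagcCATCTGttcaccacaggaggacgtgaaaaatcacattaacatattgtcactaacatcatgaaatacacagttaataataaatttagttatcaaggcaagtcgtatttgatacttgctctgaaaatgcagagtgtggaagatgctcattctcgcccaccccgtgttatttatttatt
Peak 4922, chr5:112170047-112170346, widest in E130006D01Rik: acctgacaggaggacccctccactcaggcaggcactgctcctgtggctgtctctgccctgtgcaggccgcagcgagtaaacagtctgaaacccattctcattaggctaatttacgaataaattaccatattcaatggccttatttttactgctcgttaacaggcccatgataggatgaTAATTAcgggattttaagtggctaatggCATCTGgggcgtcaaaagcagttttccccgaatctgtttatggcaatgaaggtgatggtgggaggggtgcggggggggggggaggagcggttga
Peak 3560, chr2:132253364-132253663, widest in 4921508D12Rik: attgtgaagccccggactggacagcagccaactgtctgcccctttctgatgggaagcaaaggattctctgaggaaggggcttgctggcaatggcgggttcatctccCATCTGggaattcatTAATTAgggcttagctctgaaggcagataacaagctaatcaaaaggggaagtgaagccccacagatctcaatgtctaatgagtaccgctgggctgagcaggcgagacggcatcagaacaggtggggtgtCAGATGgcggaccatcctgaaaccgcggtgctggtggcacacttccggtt
Peak 5137, chr5:150316120-150316419, widest in Gm15997: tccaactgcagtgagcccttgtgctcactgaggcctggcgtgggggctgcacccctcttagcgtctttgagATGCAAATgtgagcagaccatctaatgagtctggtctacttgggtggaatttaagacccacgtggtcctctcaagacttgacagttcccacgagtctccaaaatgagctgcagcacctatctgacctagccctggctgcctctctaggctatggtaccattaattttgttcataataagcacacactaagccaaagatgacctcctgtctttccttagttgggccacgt
Peak 3821, chr3:34566783-34567082, near Sox2: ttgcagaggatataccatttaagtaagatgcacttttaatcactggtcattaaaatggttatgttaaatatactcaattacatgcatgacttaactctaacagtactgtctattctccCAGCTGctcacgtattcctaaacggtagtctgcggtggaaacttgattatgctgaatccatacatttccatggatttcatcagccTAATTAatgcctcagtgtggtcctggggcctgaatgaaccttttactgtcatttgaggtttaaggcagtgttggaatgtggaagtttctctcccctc
Peak 3496, chr2:105452337-105452636, near Pax6: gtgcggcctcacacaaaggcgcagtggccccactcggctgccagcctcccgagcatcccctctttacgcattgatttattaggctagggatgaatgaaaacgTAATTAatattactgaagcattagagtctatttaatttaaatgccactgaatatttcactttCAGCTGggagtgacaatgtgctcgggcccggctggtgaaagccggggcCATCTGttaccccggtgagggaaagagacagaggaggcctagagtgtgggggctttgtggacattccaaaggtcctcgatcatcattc

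Of these 10 middles, 2 held none of the motifs: those of peak 1529, 158.0 kb from the Sox4 start, and of peak 3820, 12.9 kb from the Sox2 start. A homeodomain site was present in 6 of the 10 and an E-box in 7. Over all peaks the middle 500 bp, a longer stretch, held these in 31.3 and 74.1% of cases, and the 10 were not drawn at random. The middle of peak 4898 in Ttc28 held a pair of homeodomain sites. That of peak 3496, 56.6 kb from the Pax6 start, held a homeodomain site and a pair of E-boxes.

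The 181 peaks lay in 116 genes, 3.02% of the 3845 noncoding genes of the annotated types. Of these genes, 50 were lincRNA and 66 processed_transcript. Single genes overlapped in places, so that 176 peaks had 1 gene and 5 peaks had 2. Most genes held a single peak: 89 genes held 1, 15 held 2, 7 held 3 and 5 held 5 or more. The 3 genes with most peaks, Ttc28, 2610307P16Rik and Sox2ot, together held 35 of the members, or 19.3%.

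Sox2ot, a lincRNA gene of 578.2 kb on the plus strand, spans chromosome 3 between 34003360 and 34581541 and contains Sox2, which encodes a transcription factor that keeps neural progenitors undifferentiated. It held 11 peaks, and no further peak of the list fell in its body. For 9 of them the nearest protein-coding start site was that of Sox2 at distances of up to 238.3 kb. The remaining 2, peaks 3811 and 3812, lay nearest to Dnajc19, at 241.4 and 250.2 kb.

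The widest member of all, peak 3820, covered 3977 bp of Sox2ot from 34559824 to 34563800 and lay 12.9 kb from the Sox2 start. Peak 3821 was 1185 bp wide and lay 18.01 kb from that start. Peak 3818 lay at 71.7 kb, with a GC content of 36.1% against 51.9% in peak 3820, and peaks 3817 and 3816 at 140.7 and 145.9 kb. Peaks 3811 and 3817 overlapped annotated exons of Sox2ot.

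On chromosome 13 the lincRNA gene 2610307P16Rik runs over 425.6 kb on the minus strand, from 28551903 to 28977489, and starts 65.5 kb from Sox4, a gene for a transcription factor of differentiating neurons. It held 12 peaks, and for 11 of them Sox4 had the nearest protein-coding start. Those 11 lay 91.1 to 286.6 kb from Sox4. The widest, peak 1529, covered 2616 bp from 28883731 to 28886346 at 158.0 kb, and the narrowest, peak 1528, covered 769 bp at 164.0 kb. The closest pair, peaks 1524 and 1525, had midpoints 2.03 kb apart. Peak 1520 stood away from the rest, 404.1 kb from the 5′ end of the gene and nearest to the prolactin family gene Prl5a1, 339.0 kb away.

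Ttc28 is typed as lincRNA in vM1, whereas RefSeq lists it as protein-coding. It encodes a protein with tetratricopeptide repeats. Its body on chromosome 5, from 111308822 to 111718800, held 12 peaks in 410.0 kb. They fell into a group of 5 between 70.3 and 178.9 kb from the 5′ end and a group of 7 between 316.0 and 390.6 kb. The nearest start of a gene typed as coding in vM1, which leaves out Ttc28 itself, differed between them. It was that of Chek2, a gene for a DNA damage kinase, for the 5, and of Pitpnb, a gene for a lipid transfer protein, for the 7. Starts of noncoding type lay nearer to all 12. The distances were 70.3 against 110.1 kb to Chek2 for peak 4896, and 1.39 against 98.8 kb to Pitpnb for peak 4906. In the first group the GC content ran from 40.5 to 52.0%, and 4 of the 5 were at 42.9% or below. In the second it ran from 51.0 to 55.2%. The widest of the gene, peak 4898, was 1525 bp and the narrowest, peak 4906, was 648 bp.

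The same disagreement between annotations held for Gm829, which held 2 members, and for Gm14461, which held 1, both chosen for naming after their values were seen. RefSeq gave a type for 87 of the 116 genes, 84 of them as long noncoding RNA and these 3 as protein-coding. Without the 3 genes, 166 members remained in 113 genes, with a median width of 1062.5 bp.

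A330033J07Rik, a lincRNA gene of 218.4 kb on the minus strand, spans chromosome 13 between 48139600 and 48357992. It overlaps Id4, which encodes an inhibitor of bHLH transcription factors in neural progenitors. The closest transcript start of A330033J07Rik lay 0.654 kb from the Id4 start. A330033J07Rik held 6 peaks, all between 102.9 and 167.8 kb from its 5′ end. Peaks 1621 and 1620 lay nearest to Id4, at 101.7 and 107.0 kb, and the other 4 lay nearest to 4931429P17Rik. All but 1 of the 6 were at least 1339 bp wide. Peak 1619 was the widest at 2438 bp, and peak 1617 the narrowest at 1002 bp.

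4930467D21Rik, a lincRNA gene of 195.7 kb on chromosome 5 from 97821459 to 98017144, held 5 peaks of 750 to 1285 bp. It starts head to head with Naa11, 0.110 kb away, and overlaps Gk2. Peaks 4842 and 4843 lay nearest to Naa11, an acetyltransferase gene, at 17.1 and 23.7 kb, and peaks 4844, 4845 and 4846 nearest to Gk2, a glycerol kinase gene, at 26.8, 10.01 and 81.0 kb. Their GC contents were all between 40.0 and 42.3%.

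The other 7 genes among the 12 with most peaks held 3 each. In E130006D01Rik, 27.4 kb long on chromosome 5, the peaks were 4.798 and 9.18 kb apart and had GC contents of 53.4, 47.8 and 50.7%. In 4921508D12Rik on chromosome 2, peaks 3561 and 3562 were 1.38 kb apart and lay 59.5 and 60.9 kb from Prokr2, a prokineticin receptor gene that shapes olfactory bulb development. Gm15997 on chromosome 5, which overlaps Wdr95, held peak 5137, the next widest member, at 2724 bp from 150314908 to 150317631. The peaks of these 3 genes all sat within 24.3 kb of the 5′ end.

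Long genes with few peaks made up the rest. 9630028H03Rik held the narrowest peak of the whole list, peak 3572, with 367 bp from 135329094 to 135329460 on chromosome 2, beside peak 3571 of 841 bp. The GC contents of these neighbours were 36.0 and 35.6%. In Gm12068 on chromosome 11 the 3 peaks lay 553.6, 616.0 and 638.6 kb from Bcl11a, the nearest coding start, whose product is a zinc finger factor of cortical projection neurons. In Gm13481 on chromosome 2 they lay 390.1 to 715.0 kb from Acvr2a, an activin receptor gene, and peak 3324 at the far end was the member farthest from any coding start. In Gm6999 on chromosome 14 they lay 3.64 to 17.7 kb from Gm10845.

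**Figure D1:**
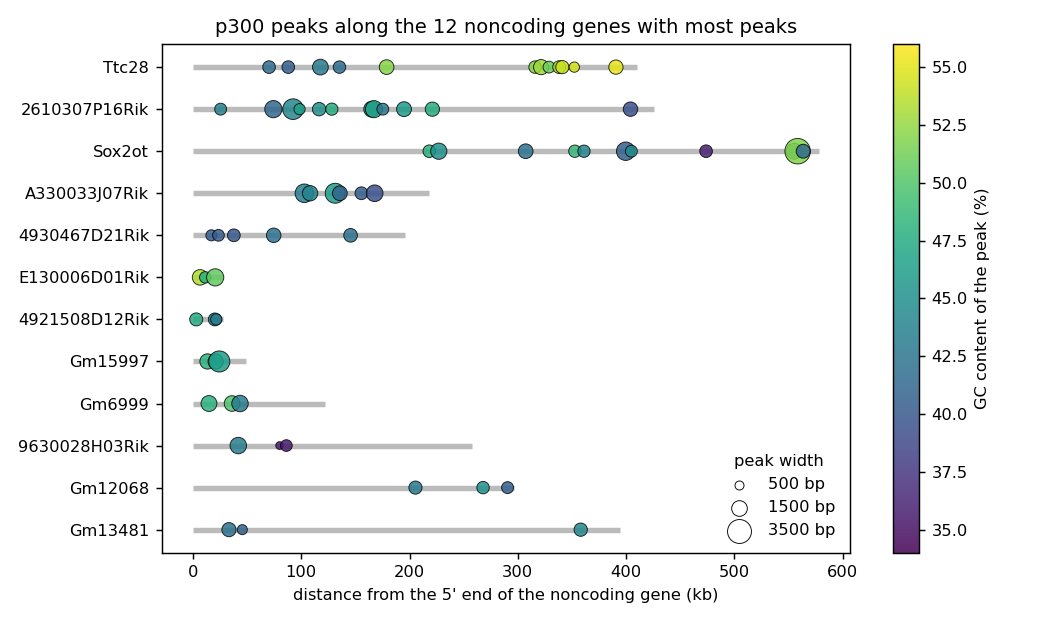
p300 peaks along the 12 noncoding genes with most of them, placed by the distance of each midpoint from the 5′ end of the gene (kb), with the circle area scaled to peak width and the colour to GC content (%), and grey bars for the gene bodies. The peaks of Ttc28 fall into a group of 5 and a group of 7, and the widest circle is peak 3820 of Sox2ot, 3977 bp.

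Among noncoding genes known for roles in neural tissue, imprinting or growth, 24 of a list of 39 symbols were annotated in the types used, and 4 of the 24 held a peak, where 3.02% of all noncoding genes did. Besides Sox2ot these were Miat, Rmst and Pvt1, with 1 peak each. Their lengths ran from 15.7 kb for Miat to 578.2 kb for Sox2ot. The comparison with 3.02% does not allow for length, with which the share of genes holding a peak rises, as given below. In Miat, a nuclear RNA of neural cells, peak 4940 covered 1039 bp of chromosome 5 from 112654182 to 112655220. In Rmst, an RNA of the embryonic brain, peak 647 covered 1049 bp of chromosome 10 from 91559407 to 91560455 with a GC content of 34.7%, 625.2 kb from the nearest coding start, Nedd1. In Pvt1, which lies downstream of the growth regulator Myc, peak 2206 covered 906 bp of chromosome 15 from 62115802 to 62116707, 299.3 kb from the Myc start.

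The rest of the 24 genes held 0 peaks in their bodies. They included Dlx1as, Dlx6os1, Emx2os and Six3os1, which run beside homeobox genes, the imprinted Meg3 and Rian, and the abundant nuclear RNAs Malat1 and Neat1. Their lengths ranged from 2.62 kb for H19 to 118.8 kb for Airn. Named after their values were seen, AI854517, which RefSeq lists as the host gene of the neural microRNA miR-9-3, held peak 5602 of 1458 bp and peak 5603 of 1712 bp, and Gm17566, listed there as Prox1os, held peak 431 of 884 bp at 19.8 kb from the start of the homeobox gene Prox1.

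Genes that held a peak were longer than noncoding genes in general, with a median of 45.9 kb (range 2.26 to 578.2 kb) against 6.40 kb for all 3845. Of noncoding genes under 10 kb, 13 of 2413 held a peak, or 0.539%, and the share was 4.08% from 10 to 30 kb, 8.84% from 30 to 100 kb, 20.2% from 100 to 300 kb and 30.0% (6 of 20, interval 11.9 to 54.3%) above 300 kb. Protein-coding genes of these lengths held a peak in 0.0903, 1.51, 8.28, 32.5 and 66.1% of cases. The noncoding share was thus above the coding share below 30 kb and under it above 100 kb. The authors had removed peaks at exons and near transcription start sites of their own annotation, so both shares describe what was left. Whether this filter took more from coding genes, or from short ones, was not tested. A noncoding gene counted only through peaks outside coding genes, which lowers its share where bodies overlap, and 32 of the 116 bodies overlapped a coding gene.

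**Figure D2:**
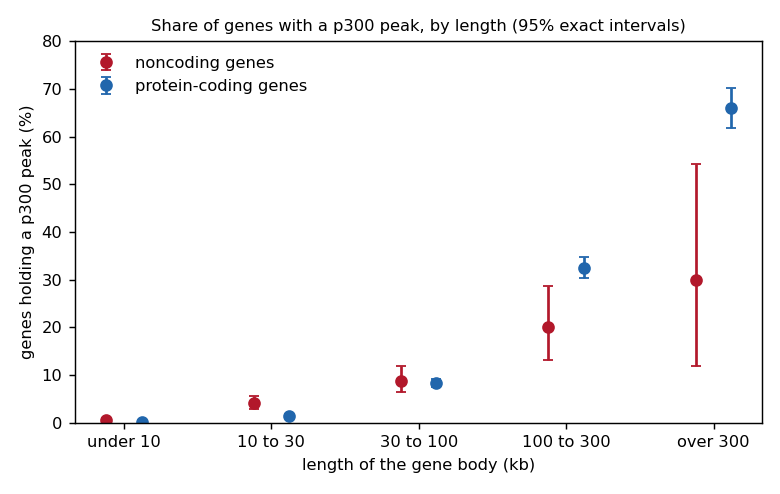
Share of genes that held at least 1 p300 peak (%), by length of the gene body (kb), for noncoding genes (red) and protein-coding genes (blue), with exact 95% intervals. From the shortest to the longest bin the noncoding share goes from 0.539 to 30.0% and the coding share from 0.0903 to 66.1%.

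Per assembled Mb of sequence, noncoding gene bodies outside coding genes held 3.50 peaks (Poisson 95% interval 3.01 to 4.05) over 51.7 Mb. Protein-coding bodies held 2.86 peaks per Mb (2.75 to 2.96) and intergenic sequence 2.40 (2.32 to 2.48). The exons and start regions at which the authors had removed peaks were kept in these lengths, and the effect on each density was not tested. The noncoding density rested in part on the 3 genes with most peaks: without them it was 2.90 per Mb (2.45 to 3.41), an interval that holds the coding density. Without the genes that RefSeq lists as protein-coding it was 3.24 per Mb (2.77 to 3.77), which also holds the coding density.

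Members were found on 19 chromosomes and not on chromosome 17. Chromosome 2 held 43 of the 181, or 7.43% of its 579 peaks, and chromosome 1 held 1 of 456. The annotation was uneven too, but less so: chromosome 2 held 7.503 Mb of noncoding gene body and chromosome 1 held 1.76 Mb. Members per Mb of that sequence ran from 0 on chromosome 17 and 0.569 on chromosome 1 to 5.73 on chromosome 2 and 8.95 on chromosome 13. Chromosomes 2, 4, 11 and X, the 4 with most noncoding gene body, held 46.2% of that sequence, 43.6% of the members and 23.5% of all peaks. Per Mb of noncoding gene body these 4 together held 3.31 members (2.62 to 4.12) and the other chromosomes 3.67 (2.99 to 4.45). How many members other chromosomes would hold under an even annotation was not tested.

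**Figure D3:**
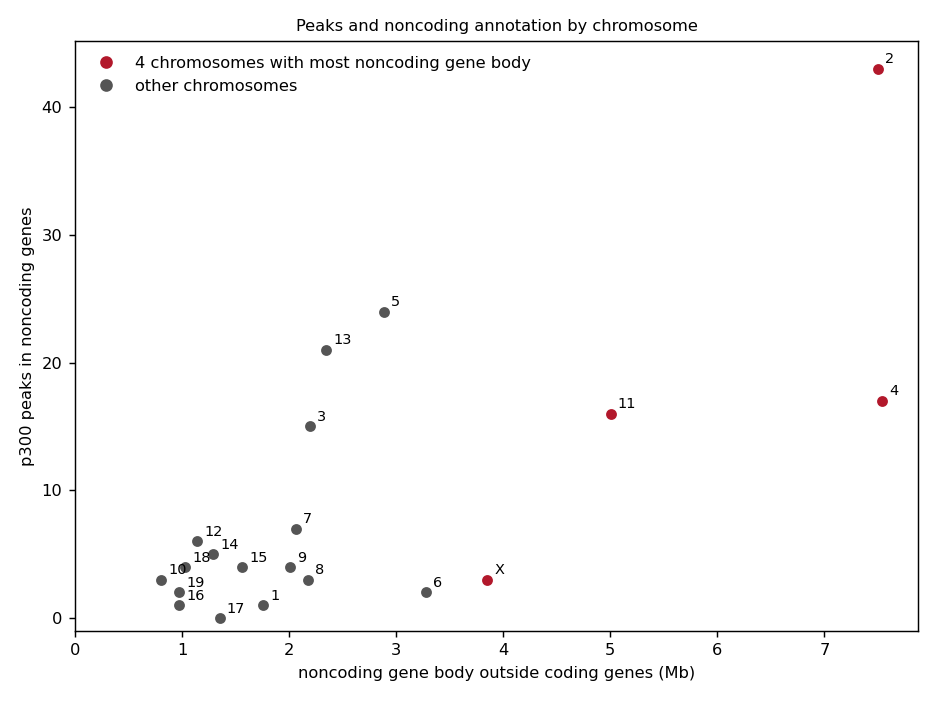
Number of p300 peaks in noncoding genes against the length of noncoding gene body outside coding genes (Mb), 1 point per chromosome, with the 4 chromosomes with most such sequence in red. Chromosome 2 stands highest with 43 peaks, and chromosomes 5, 13 and 3, which carry the 3 genes with most peaks, follow with 24, 21 and 15 among chromosomes with under 3 Mb.

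The median member was 1058 bp wide (95% interval from order statistics 1000 to 1138), with quartiles of 884 and 1413 bp and a range of 367 to 3977 bp. All peaks had a median of 1017 bp and an upper quartile of 1260 bp. The interval of the members holds the median of the whole list. Members in lincRNA genes had a median of 1163 bp (1039 to 1277) and those in processed_transcript genes only one of 1008 bp (944 to 1090). After peaks 3820 and 5137, the widest were peak 1529 in 2610307P16Rik, peak 1619 in A330033J07Rik and peak 586, which covered 2387 bp of chromosome 10 from 66382653 to 66385039 at the start of the 2.70 kb gene Gm17351.

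The GC content of members had a median of 45.5% (44.6 to 46.5) against 45.2% over all peaks. CpG dinucleotides, whose cytosines are commonly methylated and lost by mutation outside CpG islands, were at 0.252 of the number expected from base composition (0.234 to 0.275), and over all peaks at 0.228 (0.224 to 0.231). The 86 members alone in their gene had a ratio of 0.258 (0.233 to 0.288), and the 49 in genes with 2 or 3 members one of 0.224 (0.172 to 0.275). The highest GC content, 60.1%, belonged to peak 3538 in Gm14207, 3.32 kb from the start of Dll4, which encodes a Notch ligand.

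**Figure D4:**
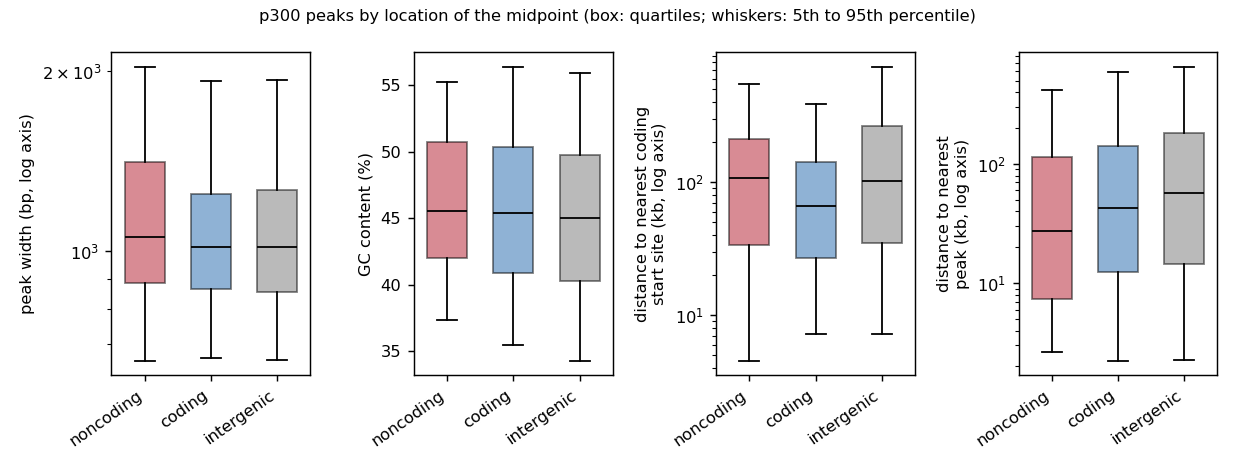
Peak width (bp, log axis), GC content (%), distance to the nearest protein-coding start site (kb, log axis) and distance to the nearest other peak (kb, log axis) for peaks in noncoding genes, in protein-coding genes and between genes, with boxes at the quartiles and whiskers at the 5th and 95th percentiles. Median widths are 1058, 1016 and 1017 bp, and median distances to the nearest peak are 27.4, 42.5 and 57.6 kb.

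Members lay along the whole length of their genes, with 66, 56 and 59 in the successive parts of the body when it was cut into 3 equal lengths from the 5′ end. Within 2.5 kb of a noncoding transcript start lay 27 members, or 14.9% (10.1 to 20.96%). Every annotated transcript counted, so such a start can lie far inside a gene. Peak 3820, for example, was 2.35 kb from one but 558.5 kb from the 5′ end of Sox2ot. The 27 members had a median GC content of 49.4% (46.7 to 52.5), and the other 154 one of 44.8% (43.8 to 45.6). The authors had removed peaks near transcription start sites and at exons of their own annotation, so the numbers at starts and exons describe what was left.

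An annotated noncoding exon overlapped 22 members, or 12.2% (7.78 to 17.8%), and for 9 of them the midpoint itself lay in the exon. The 22 ran from 758 to 2387 bp with a median of 986.5 bp (877 to 1568), beside 1067 bp (1004 to 1163) for the 159 members in introns. When the whole peak had to lie within the gene body, 173 members remained. The exonic peaks included peak 1891, 2097 bp wide at the start of Gm17716, and peak 4575 with 1549 bp in 4933427I22Rik, both named after their values were seen.

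Measured to the nearest protein-coding start site, 1 per gene, the median distance of a member was 107.0 kb (81.6 to 132.7). It was 66.9 kb for peaks in coding genes and 102.5 kb for intergenic peaks. With the start of every coding transcript the medians were 101.7, 31.9 and 92.8 kb. Over all peaks the median was 56.9 kb with every start. With 1 start per gene it was 82.6 kb, which the interval of the members holds. The median of the members rested in part on the 3 genes with most peaks. Without them it was 83.6 kb (55.985 to 108.333), and with 1 peak per noncoding gene 81.9 kb (51.4 to 111.9). Both intervals hold the median of the whole list. The distance exceeded 50 kb for 127 members, or 70.2%, and 500 kb for 11, or 6.08%. Over all peaks these shares were 63.7% and 7.03%, and 67.5% of intergenic peaks were over 50 kb away. The nearest were peak 3490, 1.85 kb from Gm11060 in the gene that RefSeq lists as Wt1os, peak 1011, 2.88 kb from Mpp3, a scaffold protein gene, and peak 1103, 3.27 kb from Nptx1, a gene for a synaptic pentraxin. Peaks 3538 near Dll4 and 2162, 3.37 kb from the angiopoietin gene Angpt1, came next. Far from any coding start, besides peaks 3324 and 754, were peak 1433 at 649.2 kb, peak 1434 at 646.4 kb and peak 1484 at 648.4 kb from the muscarinic receptor gene Chrm3.

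A start of the noncoding gene itself, that of any of its transcripts, lay within 5 kb of a coding start for 29 of the 116 genes, or 25%. Of these, 17 were head to head. Over all 3845 noncoding genes the share within 5 kb was 34.1%, and 661 of the 3845 were head to head at that distance. Pairs with starts within 5 kb included A330033J07Rik with Id4, which are not head to head, and 4930467D21Rik with Naa11, which are.

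For 30 members, or 16.6% (11.5 to 22.8%), the nearest protein-coding gene was one of 102 known or possible regulators of cortical development, mostly transcription factors. The same held for 5.94% of all peaks. The list was set with earlier results of these data known. It held genes, Sox4 and Zfp608 among them, that the authors had singled out for their many peaks in this same list. Both shares therefore depend in part on the peaks themselves. The 30 belonged to 8 genes: Sox4 with 11 members, Sox2 with 9, Bcl11a with 3, Id4 and Zfp608 with 2 each, and Pax6, Sox3 and Sox9 with 1 each. Without Ttc28, 2610307P16Rik and Sox2ot the share was 6.85% (3.33 to 12.2%), an interval that holds the share of the whole list.

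The single peaks near such regulators lay at varied distances. Peak 3496, in Pax6os1, covered 1219 bp 56.6 kb from Pax6, the homeobox gene of cortical progenitors, and was the only member of that gene. Peaks 2909 and 2910 in Gm4221 were 1632 and 1619 bp wide and lay 25.6 and 51.0 kb from Zfp608, a zinc finger gene that was the nearest coding gene for 32 peaks of the list. Peak 6578 in Gm14661 lay 212.1 kb from Sox3, a relative of Sox2. The member nearest to Sox9, a gene of progenitors and glia, lay 316.5 kb away in 2610035D17Rik.

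No member was nearest to any of 13 regulators of the subpallium, the ventral part of the telencephalon, an exact interval of 0 to 2.02%, and 0.136% of all peaks were. Likewise 0 members were nearest to a gene of the listed cell adhesion families, where all peaks had 2.20%. A ribosomal protein gene, a family used in every cell, was nearest for 1 member, or 0.552%, against 0.9504% of all peaks.

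Members lay close together. The nearest other peak was a median of 27.4 kb away (18.1 to 46.9), and it was 42.5 kb away for peaks in coding genes, 57.6 kb for intergenic peaks and 49.9 kb over the list. A neighbour under 50 kb away was present for 106 members, or 58.6% (51.0 to 65.8%), and for 50.1% of all peaks. Split by the number of members in the gene, the share was 93.5% for the 46 members in genes with 5 or more and 87.8% for the 49 in genes with 2 or 3. It was 23.3% (14.8 to 33.6%) for the 86 alone in their gene. This split is partly built in, since a member alone in its gene has no other member in that body. Without the 3 genes with most peaks the share over the members was 50%. Without the genes that RefSeq lists as protein-coding it was 55.4% (47.5 to 63.1%), an interval that holds the share of all peaks.

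Within single genes, 70 pairs of neighbouring members had a median spacing of 14.9 kb, and 28 of them were under 10 kb apart. Pairs were counted per gene, so that of peaks 3250 and 3251 entered once for 9330198N18Rik and once for the overlapping Gm14486. The shortest spacing was 1.12 kb. The stretch of 1 Mb with most peaks of the list, 39, ran between midpoints 111624813 and 112562704 on chromosome 5 and held 10 members, 7 in Ttc28 and 3 in E130006D01Rik.

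Motifs were searched in the whole peak on both strands, and a match is a description of the letters. The E-box, bound by proneural bHLH factors such as Neurog2, was present in 162 members, or 89.5% (84.1 to 93.6%), and in 88.6% of all peaks. The homeodomain site was present in 47.5% (40.1 to 55.1%) and in 46.7% of all. The octamer of POU factors, such as Pou3f2 of migrating neurons, was found in 32 members, or 17.7% (12.4 to 24.03%), against 12.9%. The Sox site was found in 38, or 20.99% (15.3 to 27.7%), against 15.5%.

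The Nfi dimer, TTGGC and GCCAA 5 bases apart, was found in 1 member, or 0.552%, which was peak 1103 near Nptx1, and in 0.362% of all peaks. The Rfx dimer, GTTGCC and GGCAAC 0 to 3 bases apart, was found in 0 members, an exact interval of 0 to 2.02%, and in 0.287% of all. Of the motifs not tied to this tissue, the AP-1 site (TGANTCA) was found in 33.7% (26.9 to 41.1%) against 28.6%, and the CTCF core (CCAC, any base, AG, any 2 bases, GGC) in 9 members, or 4.97% (2.30 to 9.23%), against 2.64%. For each of the 8 motifs, searched in the whole peak, the interval of the members holds the share of the whole list. In the middle 500 bp alone the E-box was present in 66.9% of members (59.5 to 73.7%) and in 74.1% of all peaks, which lies above that interval. Without the genes that RefSeq lists as protein-coding, the shares were 18.7% (13.1 to 25.4%) for the octamer and 22.3% (16.2 to 29.4%) for the Sox site, and these intervals lie just above the whole-list shares.

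Near the middle of the members some motifs were denser. Within 100 bp of the midpoint the E-box occurred 3.31 times per kb and elsewhere in the members 1.72 times, and over all peaks these rates were 3.76 and 1.72. The homeodomain site occurred 1.35 and 0.535 times per kb, against 1.11 and 0.611 over all peaks, and the octamer 0.387 and 0.124 times, against 0.204 and 0.117 for the octamer over all peaks. The rates of the Sox site were 0.193 and 0.191 per kb, and over all peaks 0.179 and 0.150. Those of the AP-1 site were 0.359 and 0.327, and over all peaks 0.350 and 0.304. None of the 9 CTCF cores of the members lay within 100 bp of a midpoint. Over all peaks the rate was 0.0626 per kb there and 0.0154 elsewhere, and 9 sites are too few to compare with these. The members held 36 octamers in all. These rates carry no interval, and differences from the whole list were not tested. Of the 6 motifs tied to this tissue, 3 kinds were present together in 31 members, or 17.1%, 4 kinds in 3 members, or 1.66%, and none in 6, or 3.31%. Over all peaks these shares were 12.3, 1.33 and 4.00%.

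**Figure D5:**
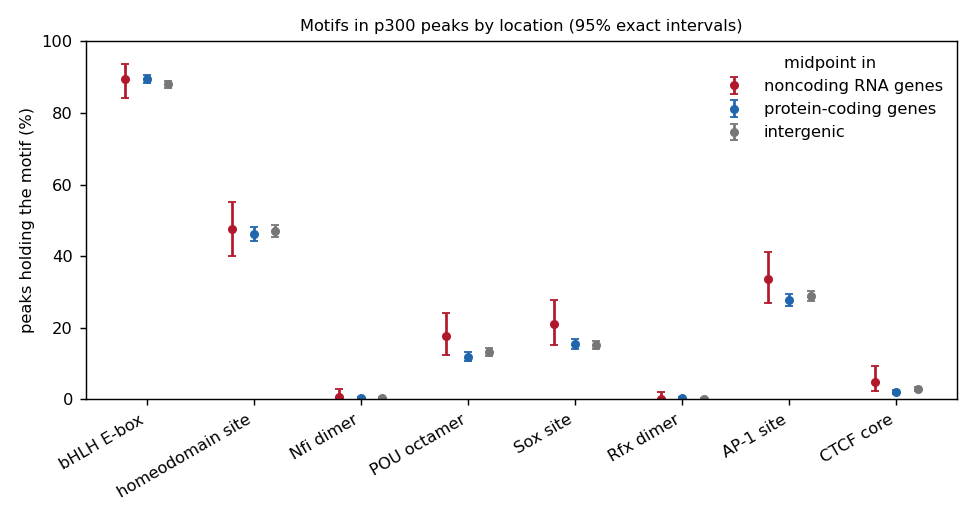
Share of peaks that hold each of 8 motifs (%), for peaks in noncoding genes (red), in protein-coding genes (blue) and between genes (grey), with exact 95% intervals. The red intervals are wide because they rest on 181 peaks, and the E-box is the most common motif, at 89.5% of the members.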

How the data were processed

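Chromatin of dissected dorsal cerebral wall was measured by ChIP-seq in 1 p300 library and 1 input library. Per the labels and the study's methods, the authors aligned reads to mm9 with ELAND, kept reads that mapped to a single place, called peaks with MACS 1.4 with the input as control, and discarded those at exons, near transcription start sites or in doubtful mapping. The deposited values are positions on mm9 (chromosome, start and end), with no count, score or signal, so the depth of each peak is unknown. Data from the input were not analysed here. The list holds chosen peaks only, and how it would change under another peak threshold was not tested.

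Midpoints were placed in the genes of GENCODE vM1 on NCBIM37, the same assembly as mm9, with Python 3.11.15, numpy 2.4.6 and scipy 1.17.1, and plotted with matplotlib 3.10.9. Each coding gene had 1 start site, taken from the transcript whose coding sequence is longest. For noncoding genes the start of every transcript counted. Densities used assembled bases only. With 1 library there was no test. Shares carry exact Clopper-Pearson 95% intervals, densities Poisson intervals and medians order-statistic intervals, all for counting error only and all treating neighbouring peaks as independent. RefSeq names and gene types came from a table of another assembly, and none of its coordinates was used. Placement and motif search were tested on simulated data.

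Genes named were the 12 with most members, those of a list of known noncoding genes that held one, and peaks named singly were drawn from the 5 widest, the narrowest, the 5 nearest to and the 5 farthest from a coding start, the 20 closest to a cortical regulator, of which 1 is not reported here, and the widest of each named gene. The rest of these are given by range. Members, lists and motifs were chosen with earlier results of these data known. Alternatives changed the gene types, the placing point, a 2.5 kb margin, the joining of peaks, the width, the distance between neighbours, the start sites and the sequence searched.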

Additional observations from a re-analysis of the deposited data

How the results depend on the processing

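With lincRNA genes only, the number of members was 99 in 50 genes, their median width 1163 bp and their share with a neighbour under 50 kb 66.7%. With only peaks of the median width or wider, there were 101 members in 71 genes with a median width of 1355 bp and 1.95 members per Mb. The share with a neighbour was 50.6% after joining peaks under 5 kb apart, 43.6% at a limit of 20 kb and 70.7% at 100 kb. In the middle 500 bp of each peak, the E-box was present in 66.9% of members (74.1% of all peaks), the homeodomain site in 28.7% (31.3%), the Nfi dimer in 0% (0.272%), the octamer in 10.5% (7.60%), the Sox site in 9.94% (7.78%) and the AP-1 site in 17.1% (14.9%). Settings chosen after seeing the data left out the 3 genes with most peaks, which gave a neighbour share of 50%, a density of 2.90 per Mb and a cortical regulator share of 6.85%, or kept 1 peak per gene, which gave a neighbour share of 39.5%. Leaving out the genes that RefSeq lists as protein-coding was a further such setting. Beside these 21 values, 77 others stayed within 1.5 times the value reported for counts of peaks or genes, and within the 95% interval for the rest.

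No paired analysis was possible because there was 1 p300 library. Without a replicate or a read count, no value here carries biological error, and a single peak cannot be called strong or weak. The vM1 annotation limits membership, since a gene it lacks makes its peaks intergenic.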

Other observations

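For 94 of the 181 members the nearest other peak was also a member. Chosen after their values were seen, peak 2251 in Gm10863 lay 28.8 kb from Sox10, a gene of neural crest and oligodendrocyte lineages, and peaks 5578 and 5579 in A730056A06Rik lay 21.2 and 20.1 kb from Rgma, an axon guidance gene. Peaks 3194 and 3195 in Gm13219 lay 503.8 and 491.8 kb from Gata3, which is better known from blood and the inner ear.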
